A study of Mus musculus with 3 samples.

Results

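The fibril-forming collagen genes followed here are *Col1a1*, *Col2a1*, *Col3a1*, and *Col5a1*. They are all 4 members of that class in a sheet of 84 extracellular matrix (ECM) genes with mm9 positions. H3K27ac, an acetylation of histone H3 that marks promoters and enhancers in use, was profiled by ChIP-seq in whole tibialis anterior (TA), a shin muscle rich in fast fibers, with the antibody ab4729 from Abcam. The samples came from C57/BL6 mice aged 2, 10, and 20 months, with 1 library per age, and the labels name no treatment, transgene, or sex. The study's methods give the middle age as a range starting at 10 months, and the number of animals behind each library is not given in the sources used here. The titles and tissue labels name TA muscle, whereas the extraction protocol in the labels speaks of activated satellite cells, and no gene that defines muscle has a position in the study's gene sheet, so the tissue was not checked against markers. Chromatin of whole muscle comes from myofibers and from fibroblasts and other resident cells, and fewer cells of a type cannot be told apart from less H3K27ac per cell. Peaks called by the authors were assigned to the nearest of the 84 transcription start sites (TSSs) when the peak edge lay at most 100 kb away. Those within 2.5 kb were called promoter peaks and those beyond distal peaks.

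Fibrillar collagens are secreted as triple-helical procollagens, trimmed at their ends outside the cell, and packed side by side into the fibrils that give tendon, skin, and the connective tissue sheaths of muscle their tensile strength. The major chain of type I collagen, the bulk collagen of muscle connective tissue, is the product of *Col1a1*, and *Col3a1* encodes the single chain of type III collagen, which forms mixed fibrils with type I in pliable tissues. *Col5a1* encodes a chain of type V collagen, a minor component from which type I fibrils are nucleated, and *Col2a1* the chain of type II collagen, the collagen of cartilage. In muscle, fibrillar collagens are made mainly by fibroblasts and fibro-adipogenic progenitors.

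RefSeq promoter windows (build GRCm38.p6) were at hand for *Col3a1* and *Col5a1*, and they are shown because one promoter had no H3K27ac peak at any age while the other had peaks at 20 months. The 250 bases before the RefSeq start are given 5′ to 3′, for *Col3a1* at chr1:45311288-45311537 and for *Col5a1* at chr2:27886175-27886424, both on the + strand. Capitals mark matches to the searched motifs on either strand, which were the GC box (GGGCGG), the TATA box (TATAAA), the CCAAT box (CCAAT), and the AP-1 site (TGANTCA). No match overlaps another here.
Col3a1: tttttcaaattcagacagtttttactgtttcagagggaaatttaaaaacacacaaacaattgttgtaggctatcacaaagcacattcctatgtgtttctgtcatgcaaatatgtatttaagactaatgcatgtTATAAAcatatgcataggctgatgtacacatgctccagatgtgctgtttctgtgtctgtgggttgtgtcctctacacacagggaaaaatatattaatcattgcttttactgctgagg
Col5a1: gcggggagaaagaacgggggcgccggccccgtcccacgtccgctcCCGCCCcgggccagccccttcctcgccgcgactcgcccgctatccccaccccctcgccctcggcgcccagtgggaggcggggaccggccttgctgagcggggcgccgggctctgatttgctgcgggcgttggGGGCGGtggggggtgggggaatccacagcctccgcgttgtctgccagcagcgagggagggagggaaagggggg
The *Col5a1* window held 76.4% G or C with 28 CpG dinucleotides and 2 matches to the GC box. The *Col3a1* window held 35.2% G or C with 0 CpG dinucleotides and 1 match to the TATA box. Over the 32851 windows of the same length in the table, the median was 52.4% G or C with 6 CpG dinucleotides, and the GC box was matched in 32.7% of windows, the TATA box in 12.4%, the CCAAT box in 33.8%, and the AP-1 site in 6.75%. A match is only a description of these letters. Because the windows are of another build than the peaks, no peak was placed on them.

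Each deposited peak carries a fold over background and a −log10 p, from which the number of reads at the summit and the background were solved together. The mean coverage of the genome, the smallest background in each list, was 1.26, 2.24, and 2.5 reads at the 3 ages in turn, which corresponds to about 15900000, 18900000, and 26300000 reads. The lists held 17884, 35221, and 44752 peaks. Summits are given below as multiples of the genome mean. At 2 months the background sat at the genome mean for 78.3% of peaks. At the later ages it equalled a whole number of reads in 10 kb around the summit, to within 0.05 reads, for 100% of the peaks lying above the mean. A peak therefore had to rise above its own surroundings at 10 and 20 months but rarely did so at 2 months. Whether a control library was used for any of the lists is not given in the sources used here. The background of the later lists is read below as reads of the H3K27ac library itself, an assumption that was not tested. Because the lists were not called against the same kind of background, numbers of peaks are given below for each age but cannot be compared between 2 months and the later ages as amounts of H3K27ac. With 1 library per age there are no replicates and no test of age, and all intervals are exact 95% intervals that cover counting error only.

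All 4 genes had more distal H3K27ac peaks at 20 months than at 2 months. At 2 months the distal peaks numbered 6 at *Col1a1*, 2 at *Col2a1*, and 0 at *Col3a1* and *Col5a1*. At 10 months they numbered 5, 5, 0, and 5 in the order *Col1a1*, *Col2a1*, *Col3a1*, *Col5a1*, and at 20 months 10, 6, 1, and 9. Together these were 8, 15, and 26 distal peaks at the 3 ages. *Col1a1* had 1 distal peak fewer at 10 than at 2 months, and this direction depended on the way of counting. It held with an inner limit of 5 kb (6 at 2 months and 5 at 10 months) and with peaks within 1 kb merged (3 and 2). The same direction was seen with the 50% of each list of smallest q (4 and 1) and with lists of equal length (6 and 1). Without peaks on a background of 4 times the mean or more the numbers were 6 and 0, which does not bear on the direction. No 2-month *Col1a1* peak had a background above 1.47 times the mean, so this setting could remove later peaks only. The direction turned to 4 at 2 months and 5 at 10 months with a minimum peak width of 222 bp, and likewise with summits of 10 times the genome mean or more. The numbers were equal with an outer limit of 50 kb (2 and 2), and with no inner limit or with peaks counted for every ECM gene in reach (6 and 6). Among all ECM genes, 67.9% had more distal peaks at 20 than at 2 months and 57.1% had more at 10 months. All 4 genes also had more distal peaks at 20 than at 10 months, as did 56% of ECM genes. In age order, 2, 3, and 4 of the genes had any distal peak, compared with 48.8%, 67.9%, and 75% of all ECM genes. The distal peaks of the 4 genes made up 0.0447% of all peaks in the youngest library (95% interval 0.0193% to 0.0881%). In the middle library they made up 0.0426% (0.0238% to 0.0702%) and in the oldest 0.0581% (0.0380% to 0.0851%). These intervals overlap, and no test of a change in the share was made. They also treat peaks as independent, which neighboring peaks of a gene are not. With lists of equal length, the 17884 peaks with the smallest q of each age, the 4 genes had 8, 8, and 9 distal peaks, and more at 20 than at 2 months were left at *Col2a1* (2 and 4) and *Col5a1* (0 and 2), with *Col1a1* at 6 and 3. The q of the lists rests on unlike backgrounds, so the reduced lists do not order the ages either.

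**Figure D1:**
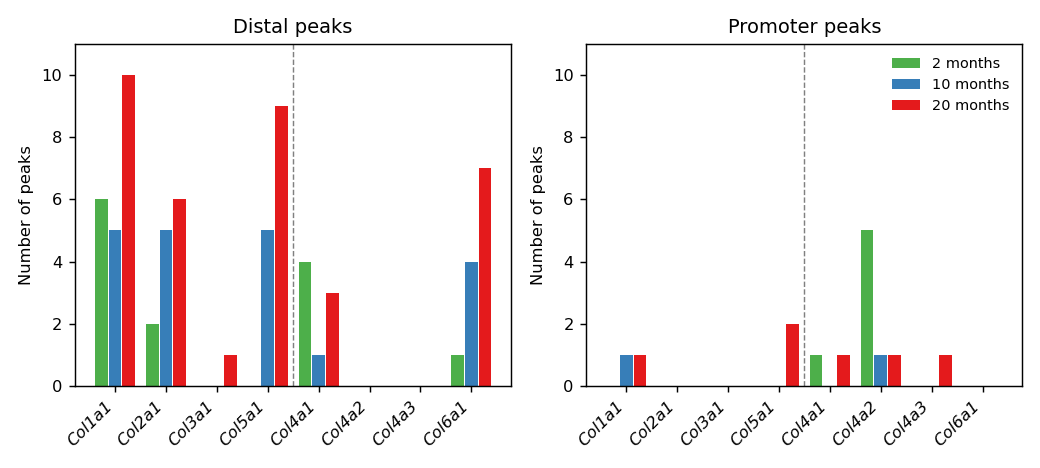
Number of distal peaks (left) and promoter peaks (right) at each collagen gene at 2, 10, and 20 months (bars, 1 library per age), with the 4 fibril-forming collagens left of the dashed line. *Col5a1* goes from 0 to 9 distal peaks and *Col3a1* from 0 to 1.

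Promoter peaks were found at *Col1a1* and *Col5a1*. None of the 4 genes had one at 2 months, when 26.2% of ECM genes did. At 10 months 1 of 4 had one, against 34.5% of ECM genes, and at 20 months 2 of 4, against 50% of ECM genes. With the lists of equal length 0 of 4 genes had a promoter peak at 10 months and 0 at 20 months. A promoter peak at 20 months and none at 2 months, found at these 2 genes, was found at 23.8% of ECM genes. The *Col1a1* promoter held 1 peak at 10 months with a summit of 26 reads, 11.6 times the genome mean, 0.255 kb inside the gene. At 20 months it held 1 peak of 27 reads, 10.8 times the mean, 0.169 kb inside the gene. The 20 over 10 month ratio of this summit was 0.930 (0.522 to 1.66), so a difference between these ages was not detectable. At 2 months no *Col1a1* promoter peak was called, and a summit of fewer than 8 reads (6.34 times the mean) would have been missed even at the lowest background. *Col5a1* had 2 promoter peaks at 20 months alone, 0.481 and 1.15 kb inside the gene, with 34 and 23 summit reads (13.6 and 9.19 times the mean).

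**Figure D2:**
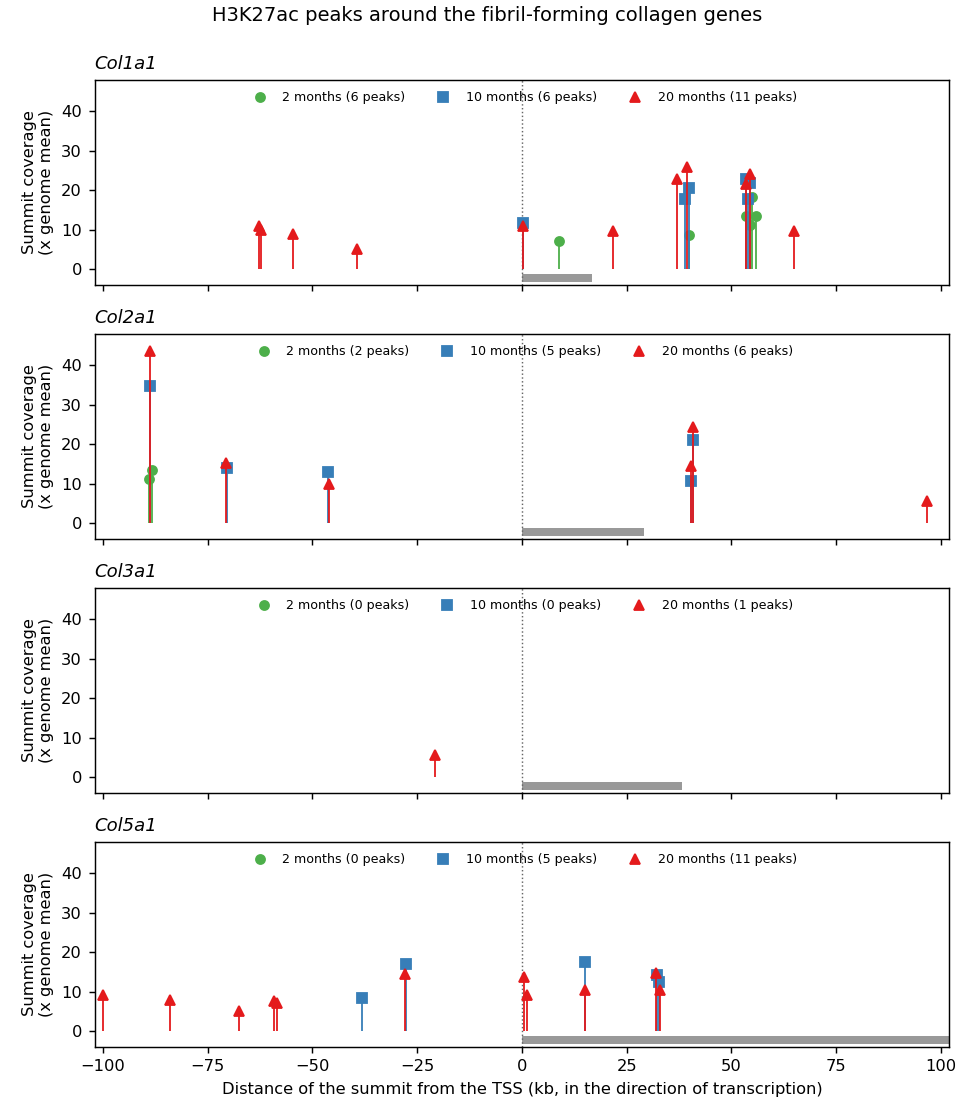
Summit coverage of every peak assigned to each gene, as a multiple of the genome mean, against the distance of the summit from the TSS in kb, at 2 months (circles), 10 months (squares), and 20 months (triangles). Grey bars are the genes, that of *Col5a1* running past the edge. *Col2a1* has the highest summit and no peak over the gene, and *Col3a1* has 1 low peak at 20 months.

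At *Col1a1* (mm9 chromosome 11, 94797538 to 94814356, + strand) the H3K27ac lay mostly downstream of the gene. Of the 6 distal peaks at 2 months, 5 were downstream and 1 lay within the gene, 8.73 kb from the TSS, with 9 summit reads (7.14 times the mean). The downstream peaks at 2 months had summits from 8.72 to 18.2 times the mean. At 10 months all 5 distal peaks were downstream, with summits from 17.8 to 22.7 times the mean. At 20 months 6 were downstream, from 9.59 to 26.0 times the mean, and 4 were upstream, 39.3 to 62.8 kb from the TSS. The upstream peaks were low, from 5.19 to 10.8 times the mean, and were seen at that age alone. RefSeq lists *Sgca*, which encodes a sarcoglycan of the myofiber membrane, *Hils1*, *Ppp1r9b*, *Samd14*, and *Pdk2*, a kinase that restrains pyruvate dehydrogenase, in this order as the protein-coding neighbors on the downstream side. Because none of them is among the ECM genes, a downstream peak may belong to one of them, and this was not tested.

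The downstream peaks of *Col1a1* sat in a wide stretch of H3K27ac. At 10 months 5 of them had between 722 and 759 reads in the surrounding 10 kb, which is 7.15 to 7.51 times the genome mean, and this local coverage was higher than around at least 89.6% of the peaks in that list. At 20 months 4 peaks had 980 to 1080 reads in 10 kb, 6.97 to 7.68 times the mean, above at least 91.0% of peaks. Their summits were also above the middle of the lists, between the 58.9th and 76.9th percentile at 10 months and the 76.7th and 86.7th at 20 months. Their folds over background, in contrast, were among the lower ones, 2.30 to 3.05 at 10 months (1.66th to 16.6th percentile) and 2.92 to 3.26 at 20 months (13.5th to 23.9th percentile). In such surroundings a summit had to reach 14.7 to 15.6 times the mean to be called at 10 months and 14.0 to 15.2 times at 20 months, against 6.34 to 7.93 times at the 2-month peaks of this gene.

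This bears on 2 regions of *Col1a1*, 55.0 and 55.7 kb downstream of the TSS, that had peaks at 2 months and none later. They held 23 and 17 summit reads at 2 months, 18.2 and 13.5 times the mean, and the former was the highest *Col1a1* summit of that age. With the background of the nearest later peak, a call there needed 34 reads (15.2 times the mean) at 10 months and 37 reads (14.8 times) at 20 months. The lower of these summits would have missed the call at both later ages at an equal multiple of the mean, whereas the higher one would have been called. The third region with a peak at 2 months alone was the weak peak within the gene. Merged regions with a peak only at 2 months made up 9.09% of the 33 regions of the 4 genes and 8.13% of all merged regions.

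**Figure D3:**
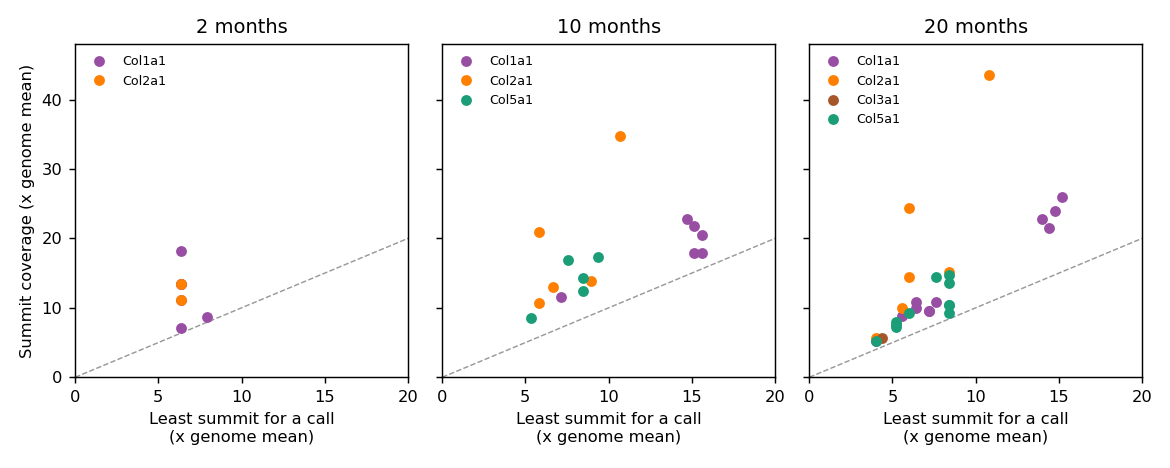
Summit coverage of each peak of the 4 genes against the least summit that would have been called at its background, both in multiples of the genome mean, in 1 panel per age, with the dashed line where both are equal. At 10 and 20 months the *Col1a1* peaks in the downstream stretches of high coverage needed about 14.0 to 15.6 times the mean, and at 2 months no peak of the 4 genes needed more than 7.93 times.

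*Col2a1* (mm9 chromosome 15, 97806033 to 97835155, − strand) had no peak within the gene or at its promoter at any age, and its peaks all lay more than 40 kb from the TSS. The highest summits of the 4 genes at 10 and 20 months were nevertheless assigned to it, 88.7 kb upstream (chromosome 15, 97923126 to 97924571). This region held 2 peaks at 2 months, the higher with 17 summit reads (13.5 times the mean), and 1 peak at each later age, with 78 reads (34.8 times) at 10 months and 109 reads (43.5 times) at 20 months. The summits at the later ages exceeded 96.8% and 99.2% of their lists. The 2-month summit was much the lowest, and the intervals of the ratios to it lay above 1. The protein-coding neighbors that RefSeq lists on this side are *Senp1*, a SUMO protease, *Pfkm*, the muscle phosphofructokinase of glycolysis, and *Asb8*, in this order. Which gene the region serves was not tested. Other *Col2a1* regions with peaks at 10 and 20 months lay 46.1 and 70.4 kb upstream and 40.4 and 40.9 kb downstream. The one 40.9 kb downstream held 47 reads (21.0 times the mean) at 10 months and 61 reads (24.4 times) at 20 months over a 10-kb coverage of only 1.72 and 1.84 times the mean. With so little H3K27ac around it, this peak had the highest fold over background of the 4 genes at each of these ages, 9.87 and 11.1. On that side RefSeq lists *Tmem106c* and *Vdr*, the vitamin D receptor.

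*Col5a1* (mm9 chromosome 2, 27741945 to 27895030, + strand) had no peak within 100 kb at 2 months. Its 5 distal peaks at 10 months comprised 3 within the gene, 12.5 to 17.4 times the mean, and 2 upstream, 8.47 and 16.9 times the mean. At 20 months 3 lay within the gene at 10.4 to 14.8 times the mean and 6 upstream at 5.19 to 14.4 times. The peaks within the gene were the same regions at both ages, 15.3, 32.2, and 32.9 kb from the TSS, and the upstream region 27.9 kb away was also shared. Their summits held 39, 32, 28, and 38 reads at 10 months and 26, 37, 26, and 36 reads at 20 months. All of the 10-month summits but the upstream one 38.2 kb away (19 reads) were at least 12.5 times the mean, above the median summit of the 2-month list, 11.1 times. In their own list, with a median of 15.6 times, they stood between the 32.5th and 56.9th percentile. Regions with a peak at all ages had a median ratio of 1.95 for 10 over 2 months, so whether these would have been called at 2 months is not known. The largest difference between the ages was at 15.3 kb, where the 20 over 10 month ratio was 0.597 (0.349 to 1.01) over the genome mean. In RPM, the summit reads scaled to library depth, it was 0.479 (0.280 to 0.807). RPM is not scaled to fragment length (222 bp at 10 months, 178 bp at 20 months), and the scales differ by that length alone. Whether the interval includes 1 thus depends on allowing for it.
Of the upstream peaks at 20 months, 4 between 58.4 and 83.9 kb from the TSS had 13 to 20 summit reads (5.19 to 7.99 times the mean) and no counterpart at 10 months. The outermost peak at 20 months, 99.8 kb from the TSS by its edge, did have a 10-month counterpart of like height (22 and 23 reads), whose edge lay 100.3 kb away and was therefore not counted. The nearest protein-coding neighbor upstream is *Rxra*, a nuclear receptor for retinoids.

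*Col3a1* (mm9 chromosome 1, 45368383 to 45406551, + strand) was nearly bare of H3K27ac peaks. It had none at 2 and 10 months and 1 at 20 months, 20.9 kb upstream of the TSS, with 14 summit reads. That is 5.59 times the mean, higher than only 2.11% of the 20-month list, and below the 6.34 times needed at 2 months. It lay above the 4.46 times needed at 10 months at the lowest background. RefSeq places *Col5a2*, which encodes the partner chain of *Col5a1*, next to *Col3a1* on the downstream side, and no peak of any age lay within 100 kb of the *Col3a1* TSS on that side.

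Altogether the peaks of the 4 genes merged into 33 regions. Of these, 15 (45.5%) had a peak at 20 months alone, against 24.6% of all 52693 merged regions, 10 (30.3%) had peaks at 10 and 20 months, against 33.8%, and 4 (12.1%) had peaks at all ages, against 20.1%. The regions of a gene are not independent of each other, so these shares are descriptions. Most of the 15 regions seen at 20 months alone were weak, with a median of 8.79 times the mean and a range from 5.19 to 22.8. The highest was *Col1a1* 37.0 kb downstream of the TSS, with 57 reads, in the nearer of the stretches of high coverage described above. At 13 of the 15 the summit was below the median summit of the 2-month list, 11.1 times the mean. At 4 of the 15 the summit was below the least height that could be called at 2 months, and at 0 of them below the least that could be called at 10 months. These limits, 6.34 and 4.46 times, hold for a background at the genome mean. Such a background was found for 78.3% of the 2-month peaks but for 2.87% of the 10-month peaks, whose median background was 3.20 times the mean. On a higher background the limit is higher, so how many of the 15 could have been called at 10 months is not known. The 20-month library was also the deepest.

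Peaks at every age were found in 3 regions downstream of *Col1a1* and in the one upstream of *Col2a1*. All 4 were higher at 10 months than at 2 months, as were 93.5% of all such regions, and all 4 were higher at 20 months than at 2 months, as were 95.8%. At the 3 *Col1a1* regions this direction was fixed by requiring a peak at every age. Their 2-month summits, 8.72 to 13.5 times the mean, lay below the least summit callable there later. That was 14.7 to 15.6 times at 10 months and 14.4 to 15.2 times at 20 months. At the *Col2a1* region the limits were 10.7 and 10.8 times, below its 2-month summit of 13.5 times. The *Col1a1* region 39.5 kb downstream (chromosome 11, 94836425 to 94837682) held 11, 46, and 65 summit reads at 2, 10, and 20 months, or 8.72, 20.5, and 26.0 times the mean. Its ratio to 2 months was 2.35 (1.2 to 5.03) at 10 months and 2.98 (1.56 to 6.25) at 20 months. The region 54.2 kb downstream (94851329 to 94852135) held 14, 49, and 60 reads, and its ratios were 1.97 (1.07 to 3.86) and 2.16 (1.19 to 4.18). The third region, 53.2 kb downstream of *Col1a1*, held 17, 51, and 54 reads, and its intervals, 0.958 to 3.12 and 0.913 to 2.94, included 1. In RPM its ratios were 2.53 (1.44 to 4.67) and 1.92 (1.10 to 3.54), whose intervals exclude 1. RPM grows with the fragment length, 148 bp at 2 months against 222 and 178 bp at 10 and 20 months. The scales differ by that length alone, so 1 was excluded only where the fragment length was not allowed for. For *Col2a1* the ratios were 2.58 (1.51 to 4.65) and 3.23 (1.93 to 5.75). Over all 10596 regions with a peak at every age the median ratios were 1.95 at 10 months and 2.08 at 20 months, and the intervals of all 4 regions included both medians.

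**Figure D4:**
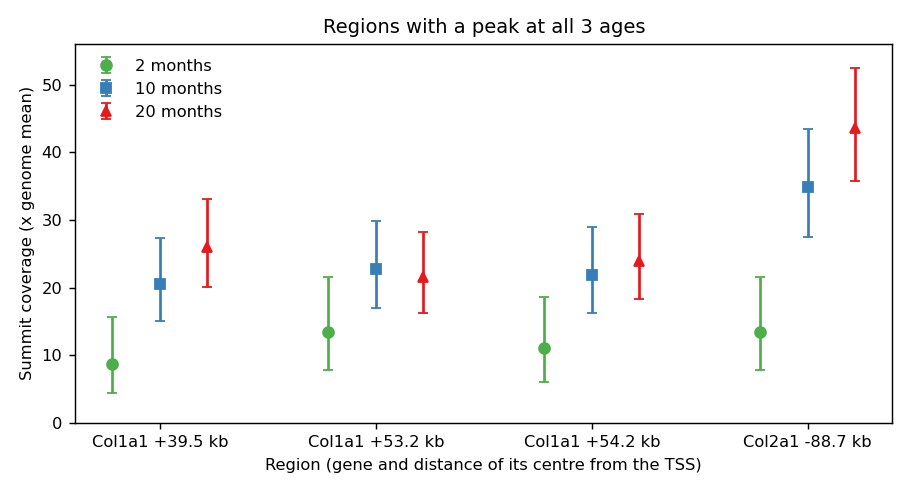
Summit coverage, in multiples of the genome mean, of the 4 regions with a peak at all ages, with exact 95% Poisson intervals for counting error (1 library per age). The 2-month value is the lowest in each region, from 8.72 to 13.5 times the mean, and *Col2a1* reaches 43.5 times at 20 months.

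Between 10 and 20 months the summits of the collagen regions were compared over the genome mean and in RPM, and 1 region differed on the latter scale alone. Over the genome mean, at the 14 regions with a peak at both ages, the interval of the 20 over 10 month ratio of the summits included 1 in all 14. The ratios ran from 0.597 to 1.34 with a median of 0.992, and 7 of 14 were above 1. Of the regions with a peak at all ages, a narrower set to which 4 of the 14 belong, 63% were above 1. RPM, the summit reads scaled to the depth of the library, also grows with the fragment length (222 bp at 10 months, 178 bp at 20 months). On this scale the median of the 14 ratios was 0.795 and 3 of 14 were above 1. The narrower set, 10596 regions across the whole lists, likewise had an RPM median below 1 (0.851). A median below 1 in RPM was therefore not particular to the collagen regions. The *Col5a1* region 15.3 kb inside the gene had an RPM ratio of 0.479 (0.280 to 0.807), which excludes 1, while the RPM intervals of the other regions included it. The reads in 10 kb around the summit do not depend on the fragment length, and they gave ratios from 0.833 to 1.11, with 9 of 14 above 1 and all 14 intervals including 1. Over all 27573 regions with such reads at both ages the median ratio was 0.968, and 38.4% were above 1. For the *Col1a1* promoter the 10-kb reads numbered 245 and 380, 2.43 and 2.70 times the mean, with a ratio of 1.11 (0.946 to 1.31). For the region 39.5 kb downstream of *Col1a1* the ratio was 1.02 (0.930 to 1.12). For the *Col2a1* region 88.7 kb upstream the numbers were 455 and 653 with a ratio of 1.03 (0.913 to 1.16), and for the *Col5a1* region 15.3 kb inside the gene they were 356 and 455 with a ratio of 0.918 (0.797 to 1.06). Windows of neighboring peaks overlap and share reads, so the 14 ratios are not independent.

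**Figure D5:**
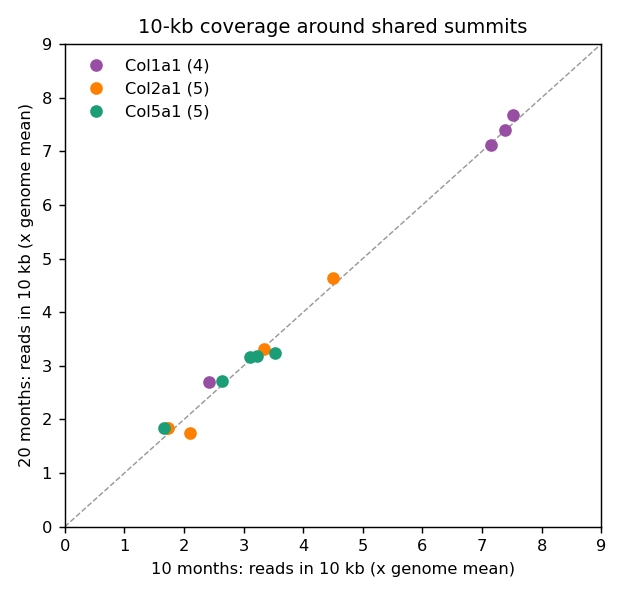
Reads in 10 kb around the summit at 20 months against 10 months, in multiples of the genome mean, for the 14 regions of *Col1a1*, *Col2a1*, and *Col5a1* with a peak at both ages, with the dashed line marking equal values. All points lie near the line, and the 3 *Col1a1* regions downstream of the gene stand highest, between 7.12 and 7.68 times the mean.

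The other 4 collagens among the ECM genes form networks or microfibrils rather than banded fibrils. *Col4a1*, *Col4a2*, and *Col4a3* encode basement membrane collagens and *Col6a1* a chain of microfibrillar type VI collagen. They had 5, 5, and 10 distal peaks at 2, 10, and 20 months, against 8, 15, and 26 at the fibril-forming genes. At 2 months 2 of these 4 genes had a promoter peak, against 0 of the fibril-forming genes, and at 20 months 3 did, against 2. Both counts include *Col4a1* and *Col4a2*, which start on opposite strands of mm9 chromosome 8 at 11312826 and 11312805. Their promoters nearly coincide, and the nearest-TSS rule divided the peaks of this shared stretch between the genes. These counts of genes are therefore not counts of separate promoters. The strongest distal summit of these collagens was 12.9 times the mean (*Col6a1* at 10 months), below the strongest of *Col1a1*, *Col2a1*, and *Col5a1*. With 4 genes a group and 1 library per age, no test of a difference between the groups was made.

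Genes that process, bind, degrade, or sense fibrillar collagen were also counted. Of 15 such genes, 11 had more distal peaks at 20 than at 2 months, 0 had fewer, and 4 had equal numbers, with 23, 56, and 59 distal peaks at the 3 ages. Among the processing and assembly partners, *Adamts2*, which cleaves the amino-terminal propeptide of procollagens, had 0, 9, and 7 distal peaks, and *Sparc*, a collagen-binding glycoprotein, had 7, 12, and 14. *Fn1* (fibronectin) had 0, 2, and 2 and *Thbs2*, a thrombospondin, 0, 4, and 2. *Tnc* and *Postn* had no distal peak at any age. Among the collagenases and gelatinases, *Mmp14*, a membrane-bound collagenase, had 5, 7, and 9, *Mmp9* 8, 12, and 13, *Mmp13* 2, 3, and 3, and *Mmp8* 0, 1, and 2, while *Mmp2* had 1 at 10 months alone and *Mmp1a* none. Of the receptor chains, *Itgb1* had 1, 3, and 5 and *Itga2* 0, 2, and 1. *Ctgf*, a matricellular inducer of collagen synthesis, had 0, 0, and 1. As among the fibrillar collagens, most of these genes had more peaks in the longer lists, and the background share of 67.9% over all ECM genes applies to them as well.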

How the data were processed

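H3K27ac ChIP-seq peak lists of TA muscle at 2, 10, and 20 months (1 library per age) were used as deposited. Per the labels, the authors aligned reads to mm9 with Bowtie2 (version not given in the sources used here) and called peaks with MACS2 2.1.0, and whether a control library was used is not given there. Per the file layout, the deposited lists hold a score (not used, since it repeats the q), a ratio (fold of summit pileup over background), a −log10 p, and a −log10 q, all the authors' own values. They were used to rank peaks within a list and to recover reads, not to compare lists.

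Summit reads, as whole numbers, and the background were solved per peak from the deposited fold and −log10 p (tolerance 0.001 in the latter). Tested on simulated data, this returned 100% of the reads for 4784, 4675, and 4693 peaks with the smallest peak width of the 2-, 10-, and 20-month list in turn. Backgrounds and summits were simulated by the same scheme for every age and were not matched to the lists. In the deposited lists the solution was found for all peaks but 1 each at 10 and 20 months. The genome mean is the smallest background in a list, and depth follows from it with the smallest peak width as fragment length (148, 222, and 178 bp) and the preset mouse genome size of MACS2. The least summit for a call is the fewest reads whose −log10 p at a given background reaches the smallest in the list (4.67, 4.16, and 4.12); the requirement of a minimum width was left out. Counts of reads in 10 kb are the background times 10 kb over the fragment length and were whole to within 0.05 reads. They are taken as reads of the H3K27ac library, which assumes that no control was used at 10 and 20 months.

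Gene positions are from the study's sheet of 84 ECM genes. Regions are peaks of the 3 lists that share at least 1 bp, at the level of the highest summit. Shares have Clopper-Pearson and ratios conditional binomial 95% intervals. No p-values were computed. RefSeq neighbors and promoters (GRCm38.p6) gave names and sequences only, with 2 of the 4 genes matched to a promoter. The named genes are the 4 members, the 4 other collagens, a list of 15 genes of collagen processing, breakdown, binding, and induction, and neighbors in RefSeq. Members and lists were chosen with earlier results of these data known. Alternatives comprised inner, outer, and promoter limits, a stricter q, lists of equal length, merging, minimum width, other overlap and level rules, RPM, and 2 added after seeing the data. Versions were scipy 1.17.1, pandas 2.3.3, numpy 2.4.6, matplotlib 3.10.9, and Python 3.11.15.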

Additional observations from a re-analysis of the deposited data

How the results depend on the processing

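The numbers of distal peaks at the 4 genes, 8, 15, and 26 at 2, 10, and 20 months, depended on how peaks were counted. With an outer limit of 50 kb they were 2 at 2 months and 12 at 20 months. With peaks within 1 kb merged the 2-month number was 4. With the 50% of each list of smallest q they were 8 at 10 months and 11 at 20 months, and with lists of equal length 8 and 9. In both reduced sets 2 of the 4 genes, in place of 4, had more distal peaks at 20 than at 2 months, and 0 genes had a promoter peak at 10 months, while at 20 months 1 gene had one in the lists cut to 50% and 0 in the equal lists. When summits had to reach 10 times the genome mean, a setting added after seeing the data, 13 distal peaks were left at 20 months. Without peaks on a background of 4 times the mean or more, also added later, 9 were left at 10 months, *Col1a1* having 0 of them. With either of these settings, and with a minimum width of 222 bp, 3 of the 4 genes had more distal peaks at 20 than at 2 months. The ratios to 2 months of the 4 regions with a peak at all ages stayed above 1 and inside the intervals given over the genome mean in RPM, with an overlap of 50% of the shorter peak, and with the mean of the summits, wherever these gave a value. At the *Col1a1* regions among them a ratio above 1 was fixed by the call limits, as described above. In RPM, which does not allow for the fragment length, the intervals of the *Col1a1* region 53.2 kb downstream came to exclude 1. So did that of *Col5a1* at 15.3 kb for 20 over 10 months. No paired analysis was possible because each age has 1 library and no replicate to leave out or pair. Depth limits weak summits most, since at 2 months fewer than 8 reads could not be called.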

Other observations

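Beyond the 100 kb counted, H3K27ac was dense upstream of *Col2a1*, on the side where RefSeq lists *Senp1*, *Pfkm*, and *Asb8*. The stretch with peak edges between 100 and 150 kb from the TSS held 3, 5, and 12 peaks at 2, 10, and 20 months, and none of them had an ECM gene within reach. The highest 10-kb coverage there was at the summit 107.5 kb away, 15.0 times the genome mean at 10 months and 13.4 times at 20 months, against at most 4.64 times at the peaks assigned to *Col2a1*. Upstream of *Col5a1*, toward *Rxra*, the same stretch held 3, 4, and 7 peaks, with summits of up to 9.52, 23.6, and 20.0 times the mean. All 3 of the 2-month peaks were more than 140 kb away, so at that age no peak was called upstream of *Col5a1* up to 140 kb. Summits below 6.34 times the mean could not be called at 2 months.

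Downstream of *Col1a1*, 4, 5, and 7 peaks at 2, 10, and 20 months lay within 150 kb of its TSS but nearer to that of *Itga3*, an integrin chain of laminin receptors. The highest of them was 13.5, 37.9, and 36.7 times the mean, against 18.2, 22.7, and 26.0 times for the highest distal summit assigned to *Col1a1*.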
